A study of Mus musculus with 20 samples.

Results

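The HoxC cluster, a row of homeobox genes on mouse chromosome 15, was followed through the phalanges, the segments of the first and second digits. Marker genes of epidermis were present in every library, so the samples were not bone alone. Its 9 members, Hoxc4, Hoxc5, Hoxc6, Hoxc8, Hoxc9, Hoxc10, Hoxc11, Hoxc12 and Hoxc13, were taken by gene symbol, and they are 9 of the 23990 genes found in the count tables of both stages. RNA of the phalanges had been sequenced, and reads were counted per gene. The phalanges came from mouse embryos at embryonic day 17 (E17) and embryonic day 16 (E16), and from hindlimbs and forelimbs. The 5 segments taken were both phalanges of digit 1 (distal, proximal) and all of digit 2 (distal, middle, proximal). Each of the 20 libraries was a pool of 10 embryos at E17 or of 20 embryos at E16, and there was 1 library for each combination of stage, limb and segment. The embryos carried no stated mutation or treatment, and neither strain nor sex is given in the labels used here. A comparison therefore sets libraries that differ in 1 factor against each other. The spread in its test is what the fitted terms leave over in all 20 libraries together, and not the spread between replicate litters.

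Hox proteins are transcription factors that bind DNA through a homeodomain, and their genes lie in clusters in the order in which they are used along the body. In the early limb bud the HoxA and HoxD clusters pattern the skeleton, and members of HoxC are used more in the hindlimb than in the forelimb. Late in development HoxC genes are active in skin, and Hoxc13 is known for its place in hair follicles and nails, where mice that lack it form brittle hairs and defective claws.

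The homeobox is the part that the members share most closely, so the stretch of 42 bases around the codons of the DNA-reading helix is shown for the 4 members that the results turn on. Capitals mark bases that differ from the commonest base at that place among the 9 members, and sequences are from GENCODE M21 transcripts (GRCm38, plus strand of chromosome 15).
Hoxc6: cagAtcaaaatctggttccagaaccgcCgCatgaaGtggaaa
Hoxc9: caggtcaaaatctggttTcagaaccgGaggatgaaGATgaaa
Hoxc12: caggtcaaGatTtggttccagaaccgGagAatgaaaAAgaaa
Hoxc13: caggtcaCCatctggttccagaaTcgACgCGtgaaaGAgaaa
Hoxc13 had 9 such bases, as had Hoxc10, against 10 in Hoxc11, 7 in Hoxc8, 6 in Hoxc12 and Hoxc4, 5 in Hoxc9, and 4 in Hoxc6 and Hoxc5. Over all 36 pairs of members, identity in this stretch ranged from 66.7% to 90.5%. Over whole transcripts, the longest exact run that Hoxc13 shared with another Hox gene was 21 bases (Hoxd4) and that of Hoxc9 was 50 bases (Hoxb9). In the same annotation Hoxc5 and Hoxc10 share 166 exonic bases, so the split of reads between these 2 genes is uncertain.

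Library totals ran from 75278309 to 111204552 counts at E17 and from 70871735 to 77361898 at E16. Marker genes went with the limb labels. Tbx4 and Pitx1, transcription factors of the hindlimb, and Tbx5, its forelimb counterpart, did not overlap between limbs. Tbx4 lay at 40 to 73.4 CPM (counts scaled to library size with normalisation factors) in hindlimbs and 6.46 to 23.1 CPM in forelimbs. Tbx5 lay at 1.92 to 17 CPM in hindlimbs and 38.9 to 201 CPM in forelimbs. No pair of libraries held identical counts. A lower level in such bulk tissue may mean fewer cells of a type or less RNA per cell, and these cannot be told apart.

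Of the 9 members, 7 reached 1 CPM in at least 4 libraries and were tested. Hoxc5 and Hoxc8 did not, with 4 to 85 counts and 10 to 105 counts per library. Hoxc4 reached 1 CPM in 9 libraries and Hoxc6 in 8, of which none was distal, so Hoxc6 entered the test through its proximal and middle libraries. Counts over the tested members are therefore descriptions. To compare genes with each other, CPM was divided by transcript length. On that scale Hoxc13 ranked first in 10 libraries and Hoxc12 in the other 10. In distal phalanges the median level was 59.4 CPM per kb for Hoxc13 and 19.9 for Hoxc12, and in proximal phalanges it was 4 for Hoxc13 and 6.88 for Hoxc12. The next genes were Hoxc10 and Hoxc11, with medians over all 20 libraries of 2.69 and 2.39 CPM per kb, whose ranges overlapped (0.828 to 5.11 and 1.46 to 3.04). Hoxc9 followed at 0.939, and Hoxc6, Hoxc4, Hoxc8 and Hoxc5 had medians of 0.578, 0.465, 0.223 and 0.176 CPM per kb. Hoxc13 alone made up 47.8% to 80.6% of the summed HoxC level per kb in the 8 distal libraries, 22.6% to 35.7% in the 4 middle libraries and 11.3% to 45.2% in the 8 proximal ones.

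**Figure D1:**
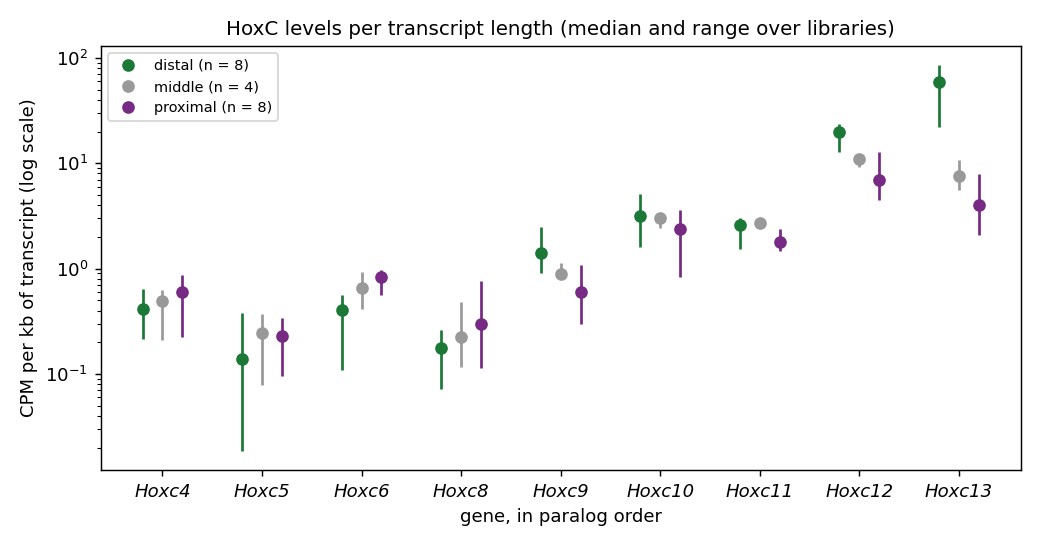
HoxC levels in CPM per kb of transcript (log axis) for distal (green, n = 8), middle (grey, n = 4) and proximal (purple, n = 8) libraries; points are medians and bars run from the lowest to the highest library. The medians of Hoxc13 and Hoxc12 stand above those of the other members, and the distal bar of Hoxc13 (22.3 to 85.2) lies wholly above its proximal bar (2.09 to 7.9).

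The distal phalanx carries the nail, and the first question was how the cluster differed between it and the proximal phalanx. Hoxc13 was higher by far in distal phalanges. In hindlimbs it stood at 113 and 142 CPM in digit 1 (E17 and E16) and at 174 and 210 CPM in digit 2, against 10.4 and 10.6 CPM and 5.13 and 6.26 CPM in the proximal phalanges of the same digits. In forelimbs it stood at 54.9 and 74.5 CPM in digit 1 and 150 and 201 CPM in digit 2, against 14.9 and 19.4 CPM and 8.6 and 9.29 CPM proximally. No distal library fell near a proximal one, and the lowest distal level was that of the E17 forelimb digit 1. The means were 140 ± 56.3 CPM in distal and 10.6 ± 4.65 CPM in proximal libraries (SD, n = 8 each), a log2 fold change of 3.72 ± 0.20 (SE) with an adjusted p of 2.11e-10 by edgeR's quasi-likelihood test. The call held in each digit alone, in each stage alone and in each limb alone.

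**Figure D2:**
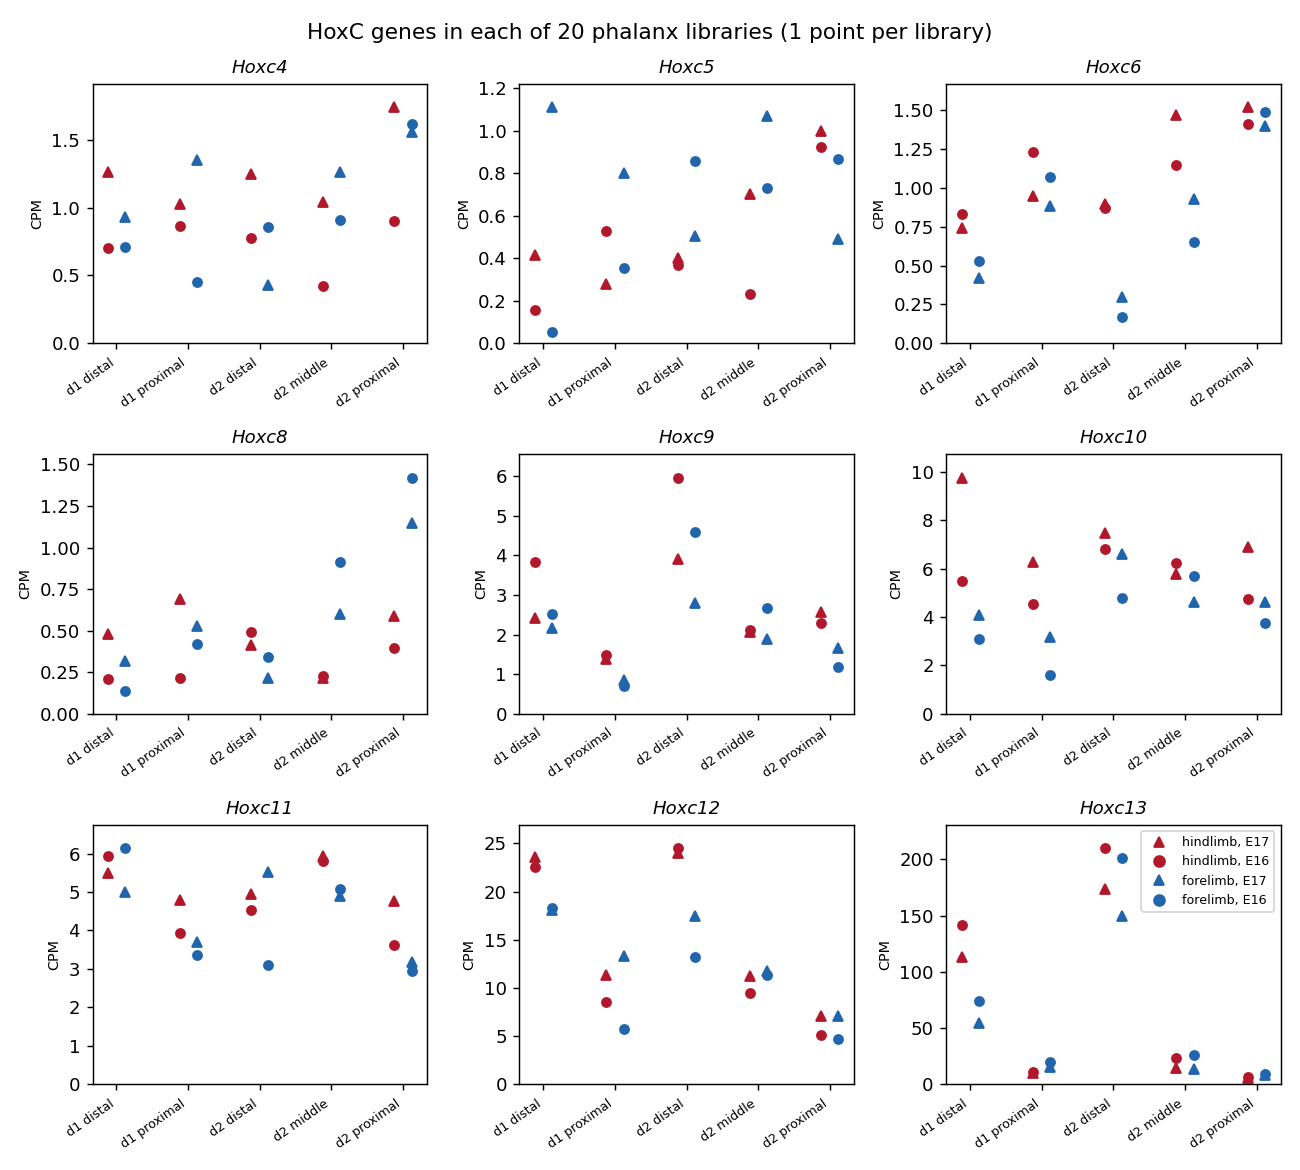
Level of each HoxC member in CPM (linear axes from 0, different for each gene) in the 5 phalanges, 1 point per library; red is hindlimb, blue is forelimb, triangles are E17 and circles are E16. Hoxc13 is highest in the distal phalanges, as is Hoxc12 with a small overlap, Hoxc6 is lower there than in proximal ones, and Hoxc10 is higher in red than in blue in each of the 10 matched pairs.

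Among the 7 tested members 5 were higher and 1 was lower in distal than in proximal phalanges, where 46.8% of the 14872 tested genes were called, 23.3% higher and 23.4% lower. The median log2 fold change was 0.46 over the members and 0.01 over all tested genes. Because so many genes differed, the count of members says little beside their sizes.

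Hoxc12, the neighbour of Hoxc13, had lowest, median and highest levels of 13.2, 20.5 and 24.5 CPM in distal and 4.65, 7.1 and 13.3 CPM in proximal libraries. The groups met only at their edges, with the E16 forelimb digit 2 lowest of the distal libraries and the E17 forelimb digit 1 highest of the proximal ones. The log2 fold change was 1.42 ± 0.14 (adjusted p = 1.35e-07), and distal was higher in 8 of 8 matched pairs. Hoxc9, a gene of the middle of the cluster, had 2.17, 3.32 and 5.96 CPM in distal and 0.711, 1.42 and 2.58 CPM in proximal libraries. The groups overlapped over both digits, but within each digit all distal libraries lay above all proximal ones. Its log2 fold change was 1.24 ± 0.18 (adjusted p = 1.43e-05), again in 8 of 8 pairs.

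Hoxc11 and Hoxc10, which lie between Hoxc12 and Hoxc9, differed less. Hoxc11 averaged 5.09 ± 0.957 CPM in distal and 3.78 ± 0.686 CPM in proximal libraries (log2 fold change 0.43 ± 0.12, adjusted p = 0.00485). Hoxc10 averaged 6 ± 2.11 CPM in distal and 4.44 ± 1.68 CPM in proximal libraries (0.46 ± 0.16, adjusted p = 0.0279). Both were higher distally in 8 of 8 pairs although the groups overlapped. The Hoxc10 call was lost when any 1 of 5 libraries was left out (highest adjusted p = 0.0866), and these were the E17 hindlimb digit 1 distal, the distal digit 2 of forelimbs at E17 and at E16, the E16 forelimb digit 1 proximal and the E16 hindlimb digit 2 proximal libraries. No call of Hoxc10 or Hoxc11 held within 1 stage or 1 limb.

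Members toward the other end of the cluster were not higher distally. Hoxc6 had 0.171, 0.634 and 0.899 CPM in distal and 0.881, 1.31 and 1.52 CPM in proximal libraries. It was lower distally in 8 of 8 pairs, and the groups met at 0.899 CPM, the highest distal library, and 0.881 CPM, the lowest proximal one. The log2 fold change was -1.16 ± 0.25, with an adjusted p of 0.000906. No distal library reached 1 CPM, so Hoxc6 passed the minimum only through the other phalanges and this p is a description. The call was kept without the filter on low counts. In E17 and in E16 libraries alone the call was lost (adjusted p = 0.0566 and 0.0528). In forelimbs alone the log2 fold change was -1.83 ± 0.38 (adjusted p = 0.00414), and in hindlimbs alone -0.60 ± 0.29 (adjusted p = 0.144), but the difference between the limbs did not pass its own test (1.23 ± 0.41, adjusted p = 0.135). Hoxc4 was at -0.40 ± 0.26 (adjusted p = 0.217), lower in 6 of 8 pairs. Without the filter on low counts Hoxc8 was at -0.88 ± 0.41 (adjusted p = 0.122), lower in 7 of 8 pairs, and Hoxc5 at -0.55 ± 0.45 (adjusted p = 0.407).

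**Figure D3:**
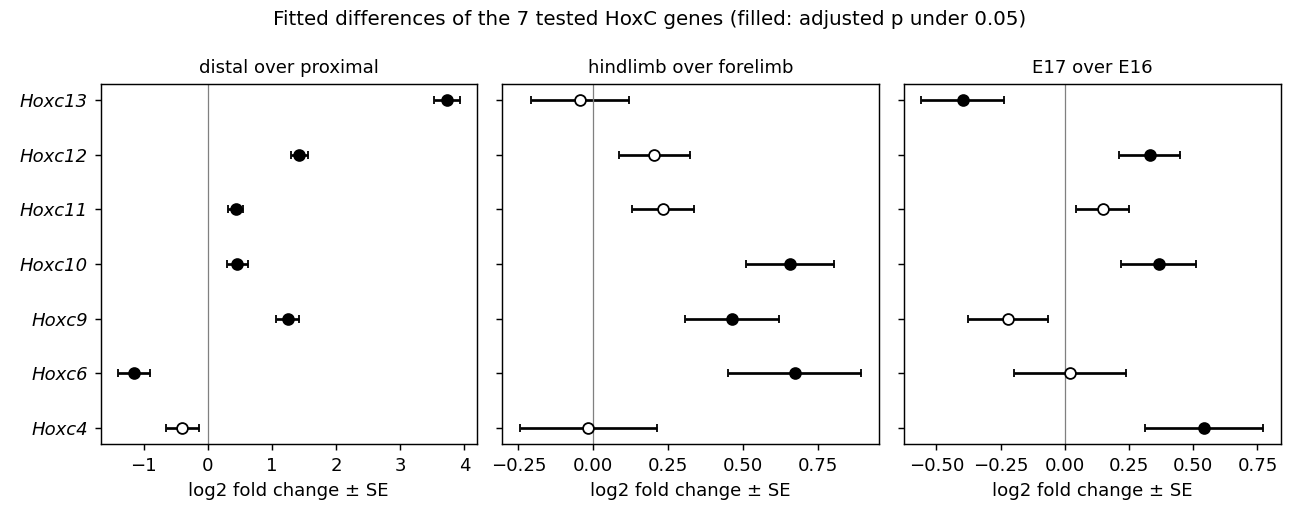
Fitted log2 fold change with its standard error for the 7 tested members, for distal over proximal, hindlimb over forelimb and E17 over E16; filled points have an adjusted p under 0.05. The horizontal scales differ, and Hoxc13 at 3.72 in the left panel is the largest value of all.

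Digit 2 has a middle phalanx, which allowed the position along the digit to be read in steps. For Hoxc13 the 4 distal libraries lay at 150 to 210 CPM, the 4 middle ones at 13.7 to 26.3 CPM and the 4 proximal ones at 5.13 to 9.29 CPM, with no overlap at either step. The middle libraries were at 14.1 and 23.3 CPM in hindlimbs and 13.7 and 26.3 CPM in forelimbs (E17 and E16), so the E16 library was the higher in each limb. The log2 fold change was 3.28 ± 0.27 for distal over middle (adjusted p = 1.54e-07) and 1.37 ± 0.26 for middle over proximal (adjusted p = 0.00564).

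Hoxc12 stepped more evenly, with 13.2 to 24.5, 9.48 to 11.8 and 4.65 to 7.11 CPM in distal, middle and proximal phalanges of digit 2. Its log2 fold changes were 0.82 ± 0.19 for distal over middle (adjusted p = 0.00246) and 0.90 ± 0.19 for middle over proximal (adjusted p = 0.0113). Without the E16 forelimb digit 2 middle library the adjusted p of the second step was 0.0562. The first step was not called in E16 libraries alone or in forelimbs alone, and the second was not called in forelimbs alone. Hoxc9 differed at the first step (0.92 ± 0.25, adjusted p = 0.00731) and was at 0.23 ± 0.25 at the second (adjusted p = 0.774). Hoxc6 was lower in the distal than in the middle phalanx by the test (0.561 ± 0.379 CPM distal and 1.05 ± 0.345 CPM middle, adjusted p = 0.0355), with groups that overlapped and a call lost without any 1 of 5 libraries, which were the middle libraries other than the E16 forelimb one and the forelimb distal ones of both stages. That call was also lost without the filter on low counts (adjusted p = 0.0647), in each stage alone (0.199 at E17 and 0.363 at E16) and in hindlimbs alone (0.38). No distal library of Hoxc6 reached 1 CPM, so its p for this step is a description as well. The Hoxc9 call at the first step was lost in each stage alone and in forelimbs alone (0.264). Hoxc11 was at 0.60 ± 0.16 for middle over proximal, just short of a call (adjusted p = 0.0506), and its middle libraries (4.89 to 5.95 CPM) lay above its proximal ones (2.95 to 4.77 CPM). For distal over middle 3 members were higher and 1 lower, where 33.1% of tested genes were called (16.3% higher, 16.8% lower). For middle over proximal 2 were higher, where 3.78% were called (1.85% higher, 1.93% lower). In each stage alone none passed at this second step.

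In digit 1 alone 4 of the 7 tested members were higher in the distal phalanx, where 27% of genes were called (12.8% higher, 14.1% lower). In digit 2 alone 3 were higher and 1, Hoxc6, lower, where 39.3% were called (19.7% higher, 19.6% lower). The difference of Hoxc13 was 2.80 ± 0.27 in digit 1 and 4.65 ± 0.29 in digit 2 on the log2 scale. The distal libraries of digit 1 lay at 54.9 to 142 CPM and those of digit 2 at 150 to 210 CPM. The proximal libraries of digit 1 lay at 10.4 to 19.4 CPM and those of digit 2 at 5.13 to 9.29 CPM. Digit 1 was thus the lower in 4 of 4 distal pairs and the higher in 4 of 4 proximal pairs, without overlap, although neither difference alone passed the test over all genes (-0.93 ± 0.25, adjusted p = 0.0762, and 0.91 ± 0.26, adjusted p = 0.11).

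No member was called between digits by edgeR, in distal phalanges (1.49% of genes called, 0.686% higher and 0.807% lower) or in proximal ones (1.22%, 0.814% higher and 0.403% lower). At an unadjusted p under 0.05 there were 2 members in distal and 3 in proximal phalanges. DESeq2 called 1 member in each, Hoxc13 distally (-0.93, adjusted p = 0.0408) and Hoxc12 proximally (0.68, adjusted p = 0.02). The share of all genes that DESeq2 called is not given here, so its calls are descriptions. Hoxc9 was lower in digit 1 in 4 of 4 distal and 4 of 4 proximal pairs, at -0.65 ± 0.24 and -0.82 ± 0.25 (adjusted p = 0.27 and 0.144). The test of the digit by position difference itself gave -1.85 ± 0.36 for Hoxc13 (adjusted p = 0.0323), where 0.39% of genes were called (0.195% in each direction). In forelimbs alone it was -2.36 ± 0.24 (adjusted p = 0.00129) and in hindlimbs alone -1.49 ± 0.20 (adjusted p = 0.0691), and it was not called in either stage alone. The call was lost without any 1 of 10 libraries (highest adjusted p = 0.084). These were the forelimb libraries of distal and proximal phalanges other than the E17 digit 2 distal one, the hindlimb digit 2 proximal libraries of both stages and the E17 hindlimb digit 2 distal library.

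The limbs also differed in the size of this step. The distal level of Hoxc13 was 33.9 and 33.5 times the proximal one in hindlimb digit 2 (E17 and E16) and 10.8 and 13.5 times in hindlimb digit 1. In forelimbs the ratios were 17.4 and 21.7 in digit 2 and 3.68 and 3.83 in digit 1. Thus the hindlimb ratio exceeded the forelimb one in each digit at each stage. Hindlimb levels were 2.05 and 1.91 times forelimb ones in the distal phalanx of digit 1, 1.16 and 1.04 times in that of digit 2, and 0.545 to 0.698 times in the 4 proximal pairs. The difference in log2 fold change between limbs was 1.24 ± 0.17 (adjusted p = 0.00348), where 1.72% of genes were called (0.793% higher, 0.928% lower), and it was called in 20 of 20 fits that left out 1 library. The same difference between stages was -0.15 ± 0.38 for Hoxc13 (adjusted p = 0.975), and no member was called by stage, where 0.222% of genes were (0.0807% higher, 0.141% lower). At an unadjusted p under 0.05 there was 1 member, and DESeq2 called none of the 7.

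**Figure D4:**
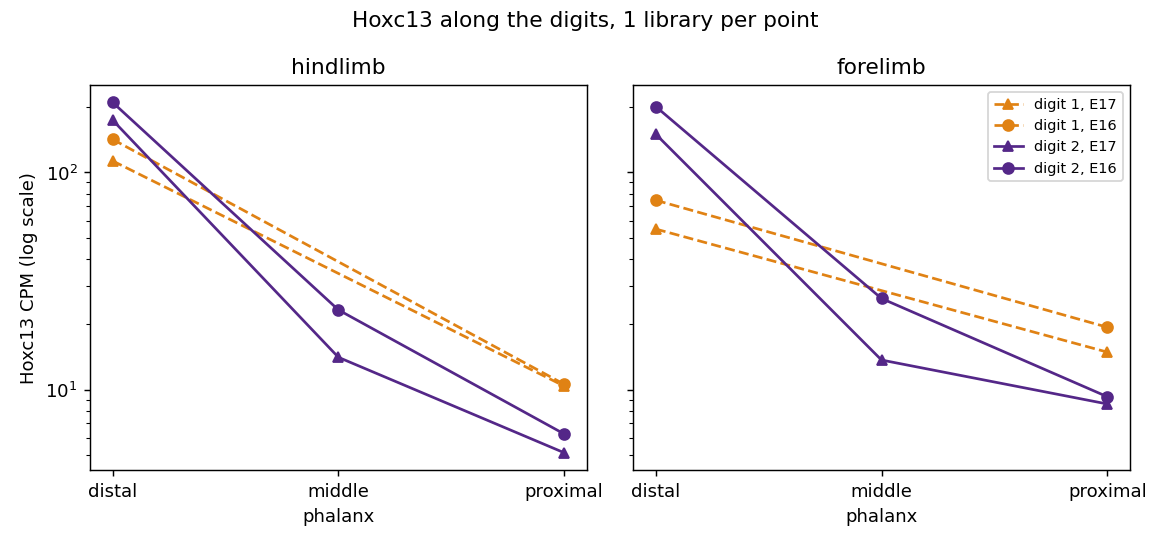
Hoxc13 in CPM (log axis) from the distal to the proximal phalanx, hindlimb left and forelimb right, 1 library per point; triangles are E17, circles E16, solid purple lines digit 2 and dashed orange lines digit 1, which has no middle phalanx. From the distal to the proximal phalanx, lines of digit 2 fall further than those of digit 1. Those of digit 1 fall least in forelimbs, where the distal points are 54.9 and 74.5 CPM.

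Between limbs as a whole, 3 of 7 tested members were higher in hindlimbs and none was lower, where 21.1% of genes were called (9.91% higher, 11.2% lower). Hoxc10 ran from 4.54 to 9.75 CPM in hindlimbs (median 6.25 CPM) and from 1.58 to 6.59 CPM in forelimbs (median 4.34 CPM). The groups overlapped, yet the hindlimb library was the higher in 10 of 10 matched pairs, by 1.1 to 2.87 times. The lowest ratio was that of the E16 middle phalanx and the highest that of the E16 digit 1 proximal phalanx. The means were 6.39 ± 1.5 CPM in hindlimbs and 4.19 ± 1.42 CPM in forelimbs (log2 fold change 0.66 ± 0.15, adjusted p = 0.00555). The call held in 20 of 20 fits that left out 1 library, and was lost in E17 libraries alone (adjusted p = 0.132) and in E16 libraries alone (adjusted p = 0.0792). It held in distal phalanges alone (0.72 ± 0.19, adjusted p = 0.0438) and was lost in middle and proximal phalanges alone (0.63 ± 0.20, adjusted p = 0.0781).

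Hoxc6 (0.67 ± 0.22, adjusted p = 0.0404) and Hoxc9 (0.46 ± 0.16, adjusted p = 0.0436) were higher in hindlimbs in 9 of 10 pairs each. Both calls were lost without the filter on low counts, within each stage, in distal phalanges alone (adjusted p = 0.0841 for Hoxc6 and 0.168 for Hoxc9) and in the other phalanges alone (0.43 and 0.188). That of Hoxc6 was also lost with limma voom (adjusted p = 0.0665). The call of Hoxc6 was lost without any 1 of 12 libraries (highest adjusted p = 0.0778), which were the 8 distal ones, the middle ones other than the E17 forelimb one, and the E16 hindlimb digit 1 proximal one. That of Hoxc9 was lost without any 1 of 13 (highest adjusted p = 0.0847), which were the proximal ones other than the E17 forelimb digit 2 one, the E17 forelimb middle one, and the distal ones of E17 forelimbs, E16 hindlimbs and E16 forelimb digit 1. Hoxc13 was at -0.05 ± 0.16 (adjusted p = 0.865), a value made of opposite parts. In distal phalanges alone it was at 0.58 ± 0.15 (adjusted p = 0.0403), and in middle and proximal phalanges alone at -0.47 ± 0.14 (adjusted p = 0.062). Hoxc12 was at 0.52 ± 0.11 in distal phalanges alone (adjusted p = 0.0206) and at 0.00 ± 0.14 in the others (adjusted p = 0.994). The test by limb and position, which sets distal against proximal phalanges, gave 0.43 for Hoxc12 and did not call it. Its limb difference is therefore not shown to depend on position.

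At E17 relative to E16, 3 of 7 tested members were higher and 1 was lower, where 65.8% of genes were called, 32.2% higher and 33.6% lower. Hoxc13 was the lower one. It averaged 55.8 ± 65 CPM at E17 and 72.3 ± 81.6 CPM at E16 (n = 10 each), spreads that hold all 5 segments. It was lower at E17 in 10 of 10 matched pairs, at 0.521 to 0.983 times the E16 level, with a log2 fold change of -0.40 ± 0.16 (adjusted p = 0.0381). The 2 lowest ratios, 0.521 and 0.605, were those of the middle phalanx.

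Hoxc12 rose by 0.33 ± 0.12 (adjusted p = 0.0212), Hoxc10 by 0.37 ± 0.15 (adjusted p = 0.0356) and Hoxc4 by 0.54 ± 0.23 (adjusted p = 0.0464), each in 8 of 10 pairs. The call of Hoxc12 held in all 20 fits that left out 1 library. That of Hoxc13 was lost without any 1 of 12 libraries (highest adjusted p = 0.105), which were the 4 middle ones, the distal ones of E17 forelimbs and E16 hindlimbs and the proximal ones of E17 hindlimbs and E16 forelimbs. That of Hoxc10 was lost without any 1 of 10 (0.0862), which were the hindlimb digit 1 libraries at E17, the distal and proximal forelimb digit 2 libraries at E17, the forelimb digit 1 libraries at E16 and the hindlimb libraries at E16 other than digit 1 proximal. That of Hoxc4 was lost without any 1 of 14 (0.1), which were the libraries other than the distal forelimb ones at E17, the forelimb digit 2 ones at E16 and the E16 hindlimb digit 1 proximal one. The calls of Hoxc13 and Hoxc4 were also lost without the filter on low counts, and that of Hoxc13 with DESeq2. Those of Hoxc12, Hoxc10 and Hoxc4 were lost in forelimbs alone. Stage cannot be told apart from pool size, the embryos used or the count table. For the difference between limbs by stage no member and 0 of 14872 genes (0%) were called by edgeR. At an unadjusted p under 0.05 there were 0 members and 1814 genes, and DESeq2 called 29 genes and no member.

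RNAs of the same locus and the other Hox clusters were set beside the members. Hotair, a long noncoding RNA made from the opposite strand between Hoxc12 and Hoxc11, had 0.739, 1.74 and 2.21 CPM in distal and 0.447, 0.713 and 1.11 CPM in proximal libraries. Its counts were 38 to 168 per library, and the lowest distal library was the E17 hindlimb digit 1. It was higher distally by 1.15 ± 0.21 on the log2 scale (adjusted p = 0.000183) and in the middle over the proximal phalanx by 1.13 ± 0.30 (adjusted p = 0.0415). Strand was not stated for these libraries, so sense and antisense reads at the locus cannot be separated.

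The other genes of paralog group 13 that were tested differed less between phalanges. Hoxa13 was higher distally by 0.71 ± 0.11 (adjusted p = 4.53e-05), with means of 34.4 CPM in distal and 20.8 CPM in proximal libraries. Hoxd13 was at -1.17 ± 0.15 (adjusted p = 3.97e-06), with means of 104 CPM in distal and 244 CPM in proximal libraries. Of the 16 tested Hox genes outside HoxC, 3 were higher (Hoxa9, Hoxa10 and Hoxa13) and 6 lower (Hoxd8, Hoxd9, Hoxd10, Hoxd11, Hoxd12 and Hoxd13). Over all tested genes 23.3% were higher and 23.4% lower in that comparison. Between limbs 9 of these 16 were higher in hindlimbs and none was lower, where 9.91% of all tested genes were higher and 11.2% lower. Whether some of the 16 reached 1 CPM only through hindlimb libraries was not examined, so this count is a description. The smallest adjusted p were those of Hoxa9 (1.82 ± 0.10, adjusted p = 7.41e-09) and Hoxa7 (3.12 ± 0.19, adjusted p = 2.12e-08). Hoxa10, the paralog of Hoxc10, was at 0.53 ± 0.05 (adjusted p = 2.73e-06), with 65.2 ± 21.4 CPM in hindlimbs and 44.8 ± 13.8 CPM in forelimbs. At E17 relative to E16, 6 of the 16 were lower and none was higher, where 33.6% of all tested genes were lower and 32.2% higher. The 6 lower were near the share over all genes.

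Genes of nail and hair were listed because Hoxc13 is known from mice to act on keratin genes there. Of 20 tested, 16 were higher in distal than in proximal phalanges and 1, the forkhead gene Foxq1, was lower (-0.76 ± 0.20, adjusted p = 0.00349). This count is a description, since 8 of the 20 reached 1 CPM in fewer than 4 middle and proximal libraries and so could pass the minimum only through distal ones. Of the other 12, which reached it without distal libraries, 9 were higher and 1 lower. Msx2, a homeobox factor of the nail and hair matrix, was at 3.27 ± 0.11 (adjusted p = 1.94e-12), with 155 ± 52 CPM in distal and 16.4 ± 7.46 CPM in proximal libraries. Krt35, a hard keratin, was at 6.60 ± 0.33 (adjusted p = 8.98e-11), with 323 ± 167 CPM in distal and 3.11 ± 1.52 CPM in proximal libraries. The summed level of the list was 1080 to 15200 CPM in distal, 223 to 339 CPM in middle and 156 to 180 CPM in proximal libraries. The hard keratins are close paralogs, and their single counts are uncertain.

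Over the 20 libraries the log2 CPM of Hoxc13 was most like that of Msx2 (r = 0.982), Dlx2 and Krt35 (r = 0.97 each). Hoxc12 was most like Arhgef19 (r = 0.934), Id1 (0.926) and Dlx3 (0.921), and Hoxc9 most like Wwc1 (0.931), Fermt1 (0.877) and Pltp (0.862). Hoxc10 was nearest to Puf60 (0.87), Hps1 (0.858) and Ell3 (0.857), and Hoxc11 to Nfil3 (0.776), Lzic (0.738) and Ip6k2 (0.728). Hoxc6 was nearest to CJ186046Rik (0.901), Mmd2 (0.876) and 2410002F23Rik (0.866), and Hoxc4 to Snhg8 (0.756), Sirt3 (0.749) and Ogfod3 (0.745). Among members, Hoxc12 and Hoxc13 had r = 0.84 and Hoxc6 and Hoxc13 had r = -0.715. These correlations are descriptions of 20 libraries that share segment, depth and tissue make-up. Msx2, picked here as the gene most like Hoxc13, was called for both differences of differences that Hoxc13 was. It was lower by digit and position (-1.40 ± 0.21, adjusted p = 0.0156) and higher by limb and position (0.57 ± 0.09, adjusted p = 0.00804). These calls come from the same libraries as the correlation and are no separate support.

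The tissue of the phalanges moved with position too. Of 10 epidermis markers 9 were higher distally, and their summed level was 21800 to 66700 CPM in distal, 16600 to 55800 CPM in middle and 13900 to 46700 CPM in proximal libraries, with none at 0 in any library. All 6 markers of dermal and loose mesenchyme were lower, with sums of 2560 to 3380 CPM in distal, 5490 to 6800 CPM in middle and 5770 to 8470 CPM in proximal libraries. Of 7 cartilage markers 3 were lower (123 to 718 CPM in distal, 187 to 1270 CPM in proximal libraries), and of 5 tendon markers 4 were lower (158 to 258 CPM and 240 to 678 CPM). All 4 endothelial and all 4 macrophage markers were lower as well, and 4 of 4 erythroid markers were higher. Of 3 tested bone markers 2 were higher and 1 was lower. Of 5 Schwann cell and nerve markers 4 were lower, and of 5 skeletal muscle markers 1 was higher. Over all tested genes 23.3% were higher and 23.4% lower distally. The listed markers at 0 in some library were Bglap of bone and Dct and Mlana of melanocytes. Among the 10 epidermis markers the highest log2 fold change was that of Epcam, at 0.95 ± 0.06 (adjusted p = 1.13e-09). By limb and position 4 of 10 epidermis markers were called, all lower, among them Krt10 at -0.79 ± 0.14 (adjusted p = 0.0144). Between limbs 4 of 7 cartilage markers were higher in hindlimbs and 1 lower, with sums of 187 to 1270 CPM in hindlimbs and 123 to 853 CPM in forelimbs. Markers of connective tissue, vessels and nerve were called only as lower in hindlimbs, namely 4 of 6 dermal, 3 of 5 tendon, 2 of 3 tested bone, 2 of 5 Schwann cell and nerve, 2 of 4 endothelial and 1 of 4 macrophage markers. The dermal sums were 2560 to 7180 CPM in hindlimbs and 3020 to 8470 CPM in forelimbs. Of the bone markers Col1a1, a chain of type I collagen, was at -0.59 ± 0.05 (adjusted p = 5.61e-07) and Ibsp, a bone matrix protein, at -1.41 ± 0.21 (adjusted p = 0.00037). Of 2 tested melanocyte markers 1 was lower and of 10 epidermis markers 1 was higher, and no muscle or erythroid marker was called by limb. Between stages 7 of 10 epidermis markers were higher at E17 and none lower, and their sum was 37600 to 66700 CPM at E17 and 13900 to 28700 CPM at E16. Of 7 cartilage markers 6 were lower at E17 and none higher, with sums of 123 to 292 CPM at E17 and 315 to 1270 CPM at E16. All 5 skeletal muscle markers were higher at E17 (32.6 to 2010 CPM at E17 and 9.01 to 586 CPM at E16), as were 4 of 4 erythroid markers (4780 to 21900 CPM at E17 and 3420 to 8080 CPM at E16). Over all tested genes 9.91% were higher and 11.2% lower in hindlimbs, and 32.2% were higher and 33.6% lower at E17. The part of these differences in tissue in the HoxC results was not tested.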

How the data were processed

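Whole-number counts per gene symbol were deposited by the authors as 1 table per stage, and these raw counts were used. Per the submitters' processing notes the build was GRCm39 with HISAT2 2.2.1 and StringTie 2.1.7, and the counting step is not given in the sources used here. The NEBNext Ultra RNA kit and paired-end reads are named in the labels' protocols, and a strand setting is not given in the sources used here. Rows of 1 symbol were summed and the tables joined to 23990 genes, 58 of them through synonyms, which kept 99.026% to 99.48% of counts per library.

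Tests covered the 14872 genes that reached 1 CPM in 4 or more libraries, with edgeR 4.0.16 in R 4.3.3 (TMM factors, quasi-likelihood F tests, two-sided, terms for segment, stage and limb, 13 residual degrees of freedom), and p-values were Benjamini-Hochberg adjusted over all of them with a threshold of 0.05. Differences by stage and position and by limb and position had fits of their own with 9 residual degrees of freedom, and that by limb and stage with 12. The digit by position difference was a contrast of the first fit. CPM is given as mean ± SD and fold changes as log2 ± SE. Correlations used log2 CPM with a prior count of 2. The script was tested on simulated data. Alternatives were RLE factors, no filter, DESeq2 1.42.0, limma 3.58.1 voom, single stages, limbs or positions, and leaving out each library. Lengths and sequences came from GENCODE M21 (GRCm38), so no coordinates are given.

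Named genes were all 9 members, the 3 genes most like each tested member, paralogs, and from each list up to 2 with the smallest adjusted p in each direction, beside genes given to complete a count or a comparison, which were chosen after their values were seen. Members and lists were chosen with earlier results of these data known. The p-values measure agreement between single pooled libraries. Part of the cofactor list is not reported here.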

Additional observations from a re-analysis of the deposited data

Results flagged for a closer look

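The rise of Hoxc13 in the distal phalanx differed between groups in 2 ways. Between digits, the log2 fold change of distal over proximal was lower in digit 1 than in digit 2 by -1.845 (edgeR, adjusted p = 0.0323). The distal libraries lay at 54.9 to 142 CPM in digit 1 and 150 to 210 CPM in digit 2. The proximal ones lay at 10.4 to 19.4 CPM in digit 1 and 5.13 to 9.29 CPM in digit 2. Without 1 library the adjusted p reached 0.084, and the difference was -1.82 in E17 libraries alone and -1.86 in E16 libraries alone, where it did not pass (adjusted p = 0.536 and 0.472).

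Between limbs, the fold change was higher in hindlimbs than in forelimbs by 1.237 (adjusted p = 0.00348), with 4.33 ± 0.11 in hindlimbs alone and 3.09 ± 0.13 in forelimbs alone. Without 1 library it stayed between 1.14 and 1.35. By limb and position 4 of 10 epidermis markers were lower and 2 of 5 skeletal muscle markers were higher. Their part in the result was not tested. None of the 45 groups of 4 libraries, 1 for each member and segment, held a library that stood apart by Dixon's test. The 4 libraries of a group differ in stage and limb and are not replicates, so no chance rate applies.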

How the results depend on the processing

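Of 86 counts of called members recomputed under other settings, 61 stayed within 1.5 times, and RLE factors moved none of the 13 they were run for. Relative to 3 members called between hindlimb and forelimb, no filter on low counts gave 1, and E17 libraries alone, E16 libraries alone, and middle and proximal phalanges alone gave 0. Relative to 4 between E17 and E16, no filter gave 2 and forelimbs alone 1. Relative to 0 between digits in distal phalanges, DESeq2, limma voom and forelimbs alone gave 1, and in proximal phalanges DESeq2 and forelimbs alone gave 1. Relative to 6 for distal against proximal, E17 alone, E16 alone and hindlimbs alone gave 3, and E17 alone gave 2 instead of 4 within digit 1 and within digit 2. Relative to 4 for distal against middle, E16 alone gave 1, and E17 alone and forelimbs alone gave 2. Relative to 2 for middle against proximal, E17 alone and E16 alone gave 0 and forelimbs alone 1. For the digit by position difference, E17 alone, E16 alone and hindlimbs alone gave 0 instead of 1. Subsets of libraries have fewer samples per fit, and for the other changes the cause was not tested.

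Of 596 values of single members, 510 kept direction and side of the threshold, 57 lost and 8 gained a call, and 21 changed sign, none of which had been called. With limma voom the sign changed for Hoxc4 in digit 1 distal against proximal (0.008) and between limbs (0.049), and for Hoxc13 between limbs (0.211). In E16 libraries it changed for Hoxc4 in digit 1 distal against proximal (0.037), distal against middle (0.324) and between digits distally (-0.225), for Hoxc10 distal against middle (-0.088) and for Hoxc9 by digit and position (-0.087). In E17 libraries it changed for middle against proximal of Hoxc9 (-0.055) and Hoxc10 (-0.116), between limbs for Hoxc4 (0.274) and Hoxc13 (0.032), and by digit and position for Hoxc11 (-0.097). In hindlimbs it changed for Hoxc4 distal against middle (0.547), Hoxc9 middle against proximal (-0.224), and between digits distally for Hoxc4 (-0.068), Hoxc6 (-0.179), Hoxc10 (0.053) and Hoxc12 (-0.075). In distal phalanges alone the limb difference changed sign for Hoxc4 (0.432) and Hoxc13 (0.579).

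Leaving out 1 library in turn gave counts of called members of 5 to 6 for distal against proximal, 3 to 4 for the same within digit 1, 4 to 4 for the same within digit 2, 3 to 4 for distal against middle, 1 to 3 for middle against proximal, 0 to 1 for digits distally, 0 to 1 for digits proximally, 1 to 3 for limbs, 1 to 4 for stages, 0 to 1 for digit by position. For limb by position it gave 1 throughout and for the remaining differences 0. The count between digits was 1 without the E17 hindlimb digit 1 distal library (distally) and without the E16 hindlimb digit 1 proximal library (proximally). The sign of these values, none called with all libraries, depended on 1 library. Hoxc4 ranged from -0.214 to 0.131 for distal against proximal in digit 1, from -0.297 to 0.261 for distal against middle, from -0.232 to 0.224 for digits distally, from -0.154 to 0.086 for limbs, from -0.791 to 0.071 for stage by position. Hoxc6 ranged from -0.018 to 0.501 for digits distally, from -0.084 to 0.118 for stages, from -0.144 to 0.764 for stage by position, from -0.258 to 0.19 for limb by stage. Hoxc9 ranged from -0.215 to 0.083 for limb by stage. Hoxc10 ranged from -0.005 to 0.4 for distal against middle, from -0.014 to 0.39 for middle against proximal, from -0.047 to 0.289 for digit by position, from -0.34 to 0.136 for stage by position, from -0.331 to 0.02 for limb by position, from -0.142 to 0.241 for limb by stage. Hoxc11 ranged from -0.192 to 0.007 for stage by position, from -0.105 to 0.158 for limb by stage. Hoxc12 ranged from -0.022 to 0.266 for digits distally. Hoxc13 ranged from -0.149 to 0.035 for limbs, from -0.505 to 0.179 for stage by position, from -0.092 to 0.31 for limb by stage. 

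The labels give no replicate numbers, so no block by replicate was fitted. Libraries match across groups by stage, limb and segment, and the fits hold these 3 factors as terms. Depth limits what can be said of Hoxc5 (4 to 85 counts per library) and Hoxc8 (10 to 105), which did not reach the minimum for a test.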

Other observations

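Genes that flank the HoxC cluster were also counted. Of 7 tested, 2 were higher and 1 was lower in distal than in proximal phalanges, with a median log2 fold change of 0.03. Over all tested genes 46.8% were called, 23.3% higher and 23.4% lower, so these calls are near the general share. Calcoco1 was higher by 0.19 ± 0.05 (adjusted p = 0.00227) and Cbx5, a heterochromatin protein, fell by 0.19 ± 0.07 (edgeR, adjusted p = 0.0314). Nfe2, a blood-cell factor, was higher by 0.75 ± 0.26 (adjusted p = 0.0213), beside the erythroid markers.

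Of 8 tested cofactors that bind DNA together with Hox proteins, 2 were higher and 2 lower in distal than in proximal phalanges. Over all tested genes 23.3% were higher and 23.4% lower, so these calls are near the general share. Meis3 was higher distally by 0.60 ± 0.15 (adjusted p = 0.00233), while Meis2 fell by 0.48 ± 0.11 (adjusted p = 0.00149) and Pknox2 by 0.82 ± 0.24 (adjusted p = 0.00836). The distal over proximal difference of Meis2 was lower in hindlimbs than in forelimbs (-0.74 ± 0.11, adjusted p = 0.00681).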
